A study of Homo sapiens with 48 samples.

Results

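The mitofusin-silenced senescent state of IMR-90 was set against proliferating IMR-90, to ask what of the doxorubicin response was present in cells with little MFN1 and MFN2 mRNA. The comparison used 6 of the 48 libraries, chosen by their titles as the 3 libraries labelled Doxo siMFN1+2 and the 3 labelled prolif of the siRNA experiment. IMR-90 is a line of human fetal lung fibroblasts. The siMFN1+2 cells received small interfering RNAs (siRNAs) against both mitofusins, then 200 nM doxorubicin for 48 h starting the day after, and gave RNA on day 7. A second set of 3 libraries had the same doxorubicin course with a negative control siRNA (labelled cNEG), and the proliferating cells had that control siRNA and no doxorubicin. The same mitofusin comparison exists in SK-MEL-103, a melanoma line. An siRNA lowers mRNA and leaves part of it, protein was not measured, and the siRNA sequences and the number per gene are not given in the sources used here. The labels do not say whether replicates were separate cultures, so p-values measure only the spread between libraries, which may be technical.

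Mitofusins are GTPases of the outer mitochondrial membrane that tether and fuse neighbouring mitochondria. Senescence is a lasting cell cycle arrest that follows DNA damage. It runs through p53 and its target CDKN1A (p21), and goes with loss of lamin B1, a larger lysosomal compartment and a secretory phenotype of cytokines, proteases and growth factors (the SASP), much of it driven by NF-kB. Mitochondria are known to be needed for the SASP in several models, and mitochondrial RNA and DNA in the cytosol can switch on interferon-stimulated genes.

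Gene counts totalled 15540397 to 60144722 per siMFN1+2 library, 29536519 to 68488596 per control siRNA doxorubicin library and 24507142 to 79204217 per proliferating library. Levels are given as CPM, counts scaled to library size with TMM factors, and folds and adjusted p-values come from edgeR's quasi-likelihood test over all 18 IMR-90 siRNA libraries, with 19077 genes tested and a threshold of 0.05. All 10 fibroblast markers were above 1 CPM in each group, with summed levels of 26900 to 53200 CPM in siMFN1+2 cells, 27900 to 42600 CPM in control siRNA doxorubicin cells and 12900 to 28800 CPM in proliferating cells. The highest proliferating sum came from proliferating library 2, which stood apart from proliferating libraries 1 and 3 at 13300 and 12900 CPM. Its counts also differed from theirs by a chi-square per degree of freedom of 257 and 141, against 18.4 between libraries 1 and 3, so results are also given without it below. Among markers of other cells, the epithelial list summed to 155 to 238 CPM in siMFN1+2 cells and 193 to 248 CPM in proliferating cells, most of it the keratin gene KRT18, at 176 ± 40 CPM in siMFN1+2 cells and 208 ± 31.7 CPM in proliferating cells (SD, n = 3 each). CDH1 was called higher, at averages of 1.15 CPM in siMFN1+2 cells and 0.284 CPM in proliferating cells, a call lost without proliferating library 1. The leukocyte list summed to 1.59 to 2.43 CPM in siMFN1+2 cells and 0.832 to 1.97 CPM in proliferating cells. Of its 4 tested members 2 were called higher (ITGAM and LYZ), and none averaged above 1 CPM in either group. The lung epithelial gene SCGB1A1 had no counts in any of these libraries. The melanocyte list summed to 43.7 to 75.5 CPM in siMFN1+2 cells and 16.1 to 25.8 CPM in proliferating cells. Most of that was MITF, at 55.1 ± 15.1 CPM in siMFN1+2 cells and 21.2 ± 5.11 CPM in proliferating cells (SD, n = 3 each). The genes MLANA, TYR and SOX10 were too low to test and had no counts in proliferating cells. The endothelial list summed to 21.3 to 37.2 CPM in siMFN1+2 cells and 54.2 to 101 CPM in proliferating cells, mostly TEK. Of its 5 tested members 2 were called higher (EGFL7 and VWF) and 1 lower (TEK), where 21.1% of all genes rose and 20.2% fell. Each of these calls was lost without 1 or more of the compared libraries. The part of these marker sums in other results was not tested. DCT and TYRP1 were called higher at averages of 0.264 and 1.51 CPM in siMFN1+2 cells. The DCT call was lost without any 1 of the 6 libraries and that of TYRP1 without siMFN1+2 library 2 (adjusted p = 0.15) or proliferating library 2 (0.074).

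CDKN2A, the gene for p16 and a usual senescence marker of fibroblasts, was all but missing from these libraries. It had 0 counts in siMFN1+2 libraries 1 and 2, in control siRNA doxorubicin libraries 1 and 2 and in all 3 proliferating libraries, where the floor of 3 counts lies at 0.0406 to 0.121 CPM. It had 47 counts (3.25 CPM) in siMFN1+2 library 3 and 89 counts (3.26 CPM) in control siRNA doxorubicin library 3. Its neighbour MTAP had 0.148, 0.125 and 0.969 CPM in siMFN1+2 cells, 0.201, 0.223 and 0.989 CPM in control siRNA doxorubicin cells and 0.203, 0.0574 and 0.0805 CPM in proliferating cells. Library 3 was thus the high one for both genes with siMFN1+2 and with the control siRNA and doxorubicin. In SK-MEL-103 with siMFN1+2 and doxorubicin CDKN2A averaged 342 CPM. A siMAVS library that shares the fit, its replicate 1, had 39 CPM of CDKN2A and 32.1 CPM of MTAP. Without that library 8737 genes were called in the main comparison, and the part of these counts in other results was not tested.

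Against proliferating cells, siMFN1+2 cells with doxorubicin differed in 7880 of 19077 genes, 41.3% of those tested. Of these, 4023 (21.1%) rose and 3857 (20.2%) fell, and 2905 (15.2%) rose and 1650 (8.65%) fell at least 2-fold. With the control siRNA, doxorubicin changed 9877 genes (51.8%), 5223 upwards (27.4%) and 4654 downwards (24.4%). Both comparisons share the proliferating libraries, so their values are set side by side and no overlap is read from them. The direct test of siMFN1+2 against control siRNA, both with doxorubicin, called 300 genes (1.57%), 122 higher (0.640%) and 178 lower (0.933%). Without proliferating library 2 the main comparison called 8033 genes. The direct test was less stable. With replicate number as a block, since replicate numbers pair the doxorubicin libraries, 691 genes were called over the 18 libraries and 3260 on its own 6. On those 6 with no block 2 were called (MFN2 being one). The count was 44 to 538 when 1 of its libraries was left out. Apart from MFN2, each gene given below with a direct adjusted p under 0.05 lost that call in at least 1 such fit.

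**Figure D1:**
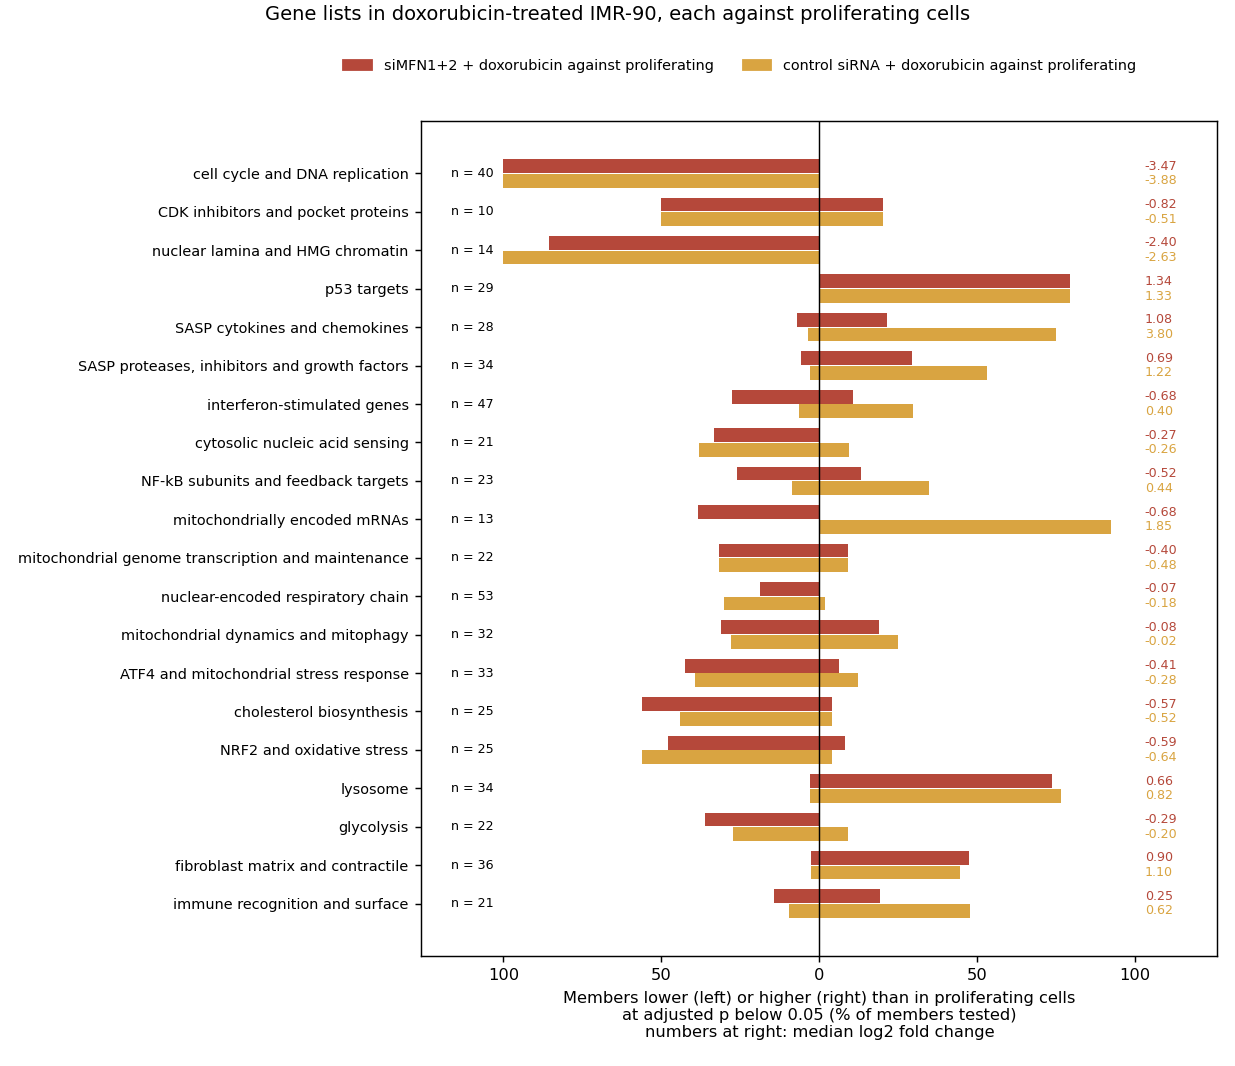
For each gene list, bars give the percentage of tested members that were lower (left) or higher (right) at an adjusted p below 0.05, in siMFN1+2 cells with doxorubicin (upper bar) and in control siRNA cells with doxorubicin (lower bar), each against proliferating cells, and figures at the right are median log2 fold changes. The cell cycle, p53 and lysosome bars have like lengths in both comparisons, whereas the bars of the mitochondrially encoded mRNAs point in opposite directions, with medians of -0.68 and 1.85.

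Both targeted mRNAs were low in every silenced library. MFN1 (chr3:179347692-179394931 in GRCh38) had 14.1, 14.3 and 5.54 CPM in siMFN1+2 cells, 47.7, 61.9 and 37.5 CPM in control siRNA doxorubicin cells and 70.1, 59.8 and 62.4 CPM in proliferating cells. Its log2 fold change against proliferating cells was -2.46, 95% interval -3.04 to -1.89, adjusted p = 5.9e-06. MFN2 (chr1:11980181-12013514) had 17.3, 20.4 and 16.6 CPM in siMFN1+2 cells, 149, 156 and 174 CPM in control siRNA doxorubicin cells and 196, 164 and 177 CPM in proliferating cells, a log2 fold change of -3.30, 95% interval -3.57 to -3.03, adjusted p = 5.7e-10. No silenced library overlapped any other group for either gene. Against control siRNA with doxorubicin MFN1 was lower by a log2 fold change of -2.08, 95% interval -2.65 to -1.51, adjusted p = 0.002, and MFN2 by -3.13, 95% interval -3.40 to -2.87, adjusted p = 2.2e-09. MAVS, which was not targeted here, had 147, 159.9 and 187 CPM in siMFN1+2 cells and 178, 234 and 184 CPM in proliferating cells, with overlapping groups (log2 fold change -0.27, 95% interval -0.60 to 0.05, adjusted p = 0.17).

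**Figure D2:**
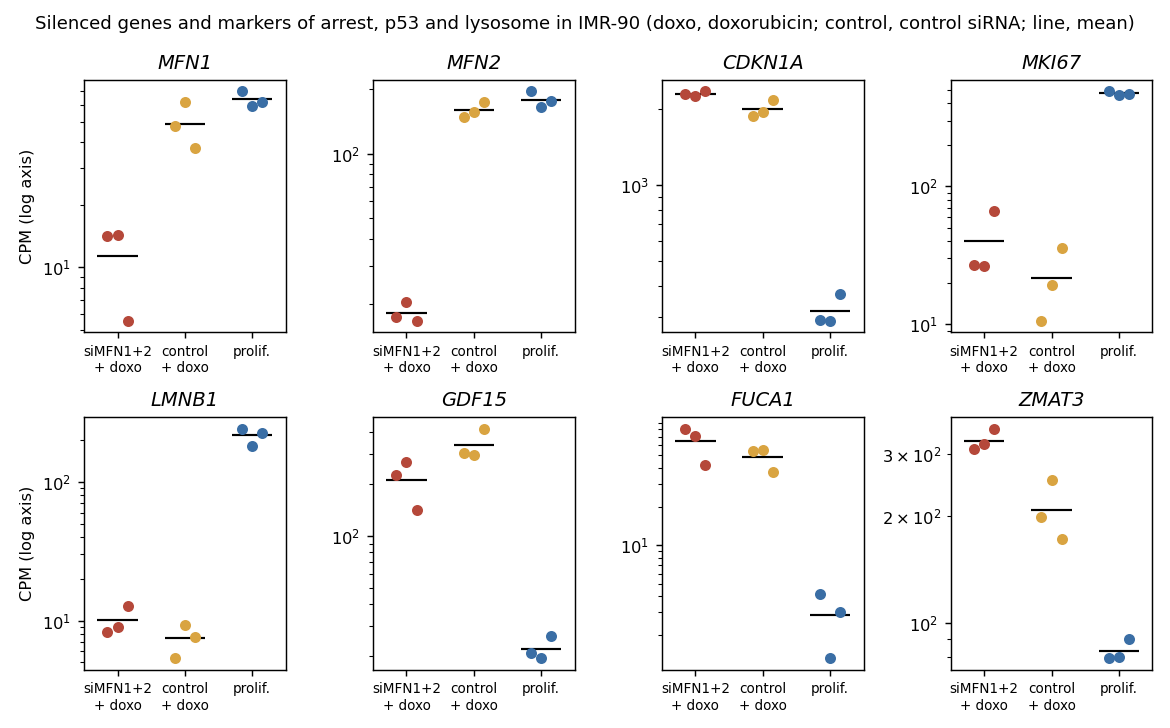
CPM on log axes in each library (points) of siMFN1+2 cells with doxorubicin, control siRNA cells with doxorubicin and proliferating cells, with group means as lines. The siMFN1+2 points stand apart from the proliferating ones in all 8 panels, which were picked from the named genes, as in 9362 of 19077 genes (49.1%). For CDKN1A the siMFN1+2 points lie at 2260.0 to 2352 CPM, against 289.9 to 369.7 CPM in proliferating cells.

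Proliferation genes were low with siMFN1+2. All 40 tested genes of the cell cycle and DNA replication list fell, where 20.2% of all genes did, with a median log2 fold change of -3.47 against a median of 0.06 over all genes. With the control siRNA all 40 fell too, with a median of -3.88, and the direct test called none of the 40. With the replicate block on those 6 libraries alone 14 of the 40 were called higher with siMFN1+2 than with the control siRNA, MKI67 among them (log2 0.90, edgeR adjusted p = 0.0045). MKI67, the proliferation antigen Ki-67, had 27.1, 26.2 and 66.2 CPM in siMFN1+2 cells, 10.6, 19.3 and 35.5 CPM in control siRNA doxorubicin cells and 491, 463 and 465 CPM in proliferating cells. Each silenced library was above the control siRNA doxorubicin library of the same number, and silenced library 3, the high one of its group, was still far below every proliferating library (log2 fold change -3.59, 95% interval -4.93 to -2.24, adjusted p = 0.00041). CDC20, an activator of the anaphase-promoting complex, had the lowest log2 fold change of the list, at 10.2, 12.6 and 21.7 CPM in siMFN1+2 cells and 373, 217 and 354 CPM in proliferating cells (log2 fold change -4.44, 95% interval -5.63 to -3.25, adjusted p = 2.2e-05). AURKB, the Aurora kinase of the spindle checkpoint, was next with 2.73, 3.43 and 5.4 CPM in siMFN1+2 cells and 75.7, 61.4 and 72.4 CPM in proliferating cells (log2 fold change -4.26, 95% interval -5.20 to -3.31, adjusted p = 3.6e-06). The smallest falls were those of PCNA, the replication clamp, at -1.91, and of NUSAP1, at -1.21 and below 1 CPM in every group. The replication helicase genes MCM2, MCM3, MCM5, MCM6 and MCM7 fell by log2 values between 2.91 and 3.34. TOP2A, the doxorubicin target topoisomerase II alpha, averaged 37.2 CPM in siMFN1+2 cells and 485 CPM in proliferating cells.

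Cell cycle genes are known to carry CHR elements and CCAAT boxes near their starts, so the promoters of the named members are shown. Windows run from 250 bases before to 50 bases after the annotated start and come from RefSeq (GRCh38.p14). All 3 named members had one. Capitals mark TTTGAA (CHR-like) or CCAAT, on either strand, and overlapping matches were counted separately. MKI67 lies on the minus strand at chr10:128126374-128126673 and CDC20 on the plus strand at chr1:43358731-43359030.
MKI67: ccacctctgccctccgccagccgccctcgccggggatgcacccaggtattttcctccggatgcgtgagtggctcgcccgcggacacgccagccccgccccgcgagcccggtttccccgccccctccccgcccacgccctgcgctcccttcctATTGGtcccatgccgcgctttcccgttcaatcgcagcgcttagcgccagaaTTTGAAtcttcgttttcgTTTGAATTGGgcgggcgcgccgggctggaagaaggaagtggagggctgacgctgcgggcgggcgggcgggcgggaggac
CDC20: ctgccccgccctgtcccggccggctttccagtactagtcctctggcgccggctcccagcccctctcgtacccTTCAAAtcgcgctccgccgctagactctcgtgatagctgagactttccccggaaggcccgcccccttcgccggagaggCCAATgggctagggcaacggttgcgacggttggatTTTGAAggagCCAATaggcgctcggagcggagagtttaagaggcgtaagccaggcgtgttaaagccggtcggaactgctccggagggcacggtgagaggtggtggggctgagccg
MKI67 had TTTGAA with its first letter 47 and 29 bases before the start and CCAAT at 98 and 24, the last of which shares a base with the TTTGAA before it. CDC20 had TTTGAA at 178 and 65 bases and CCAAT at 100 and 55. AURKB had CCAAT at 153 bases and no TTTGAA in this window. Of the 32 list members with a window, 25 (78.1%) held CCAAT and 10 (31.2%) held TTTGAA, against 34.6% and 15.2% of all 35116 windows. A high CCAAT share was not particular to this list. It was 83.3% for cholesterol synthesis and 57.1% for p53 targets, but 27.3% for glycolysis and 19.0% for the NF-kB list. A match is a description of the letters and not of binding.

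Among the CDK inhibitors and pocket proteins, 2 of 10 rose and 5 fell, and the counts with the control siRNA were the same. With siMFN1+2 21.1% of all genes rose and 20.2% fell, so the share that rose was near that of all genes. CDKN1A (chr6:36676460-36687339), which encodes p21, had 2291, 2260.0 and 2352 CPM in siMFN1+2 cells, 1873, 1943 and 2165 CPM in control siRNA doxorubicin cells and 292, 289.9 and 369.7 CPM in proliferating cells. The proliferating libraries were all far below both other groups (log2 fold change 2.86, 95% interval 2.57 to 3.15, adjusted p = 6.7e-09). The direct test gave 0.21, 95% interval -0.06 to 0.48, adjusted p = 0.45 for siMFN1+2 against control siRNA. CDKN2B, which encodes p15, had 3.27, 2.77 and 2.7 CPM in siMFN1+2 cells and 0.203, 0.545 and 0.282 CPM in proliferating cells (log2 fold change 3.20, 95% interval 1.01 to 5.39, adjusted p = 0.021), a call lost without siMFN1+2 library 1 (adjusted p = 0.053) or proliferating library 1 (adjusted p = 0.1) or proliferating library 3 (adjusted p = 0.053). CDKN2C, the p18 gene, had 2.68, 1.87 and 5.05 CPM in siMFN1+2 cells and 62.4, 65.8 and 58.4 CPM in proliferating cells (log2 fold change -4.40, 95% interval -5.60 to -3.20, adjusted p = 2.4e-05). The pocket protein gene RBL1 had 6.05, 5.22 and 8.3 CPM in siMFN1+2 cells and 57.2, 66.2 and 47.4 CPM in proliferating cells (log2 fold change -3.16, 95% interval -3.80 to -2.52, adjusted p = 1.5e-06).

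Genes of the nuclear lamina and HMG chromatin fell, 12 of 14 with siMFN1+2 and 14 of 14 with the control siRNA, with medians of -2.4 and -2.63. The shares of all genes that fell were 20.2% and 24.4%. LMNB1, the lamin whose loss marks senescence, had 8.28, 9.05 and 12.8 CPM in siMFN1+2 cells, 5.37, 9.37 and 7.62 CPM in control siRNA doxorubicin cells and 242, 181 and 224 CPM in proliferating cells (log2 fold change -4.45, 95% interval -5.34 to -3.56, adjusted p = 1.3e-06). HMGB2, a chromatin protein, had 12.6, 13.2 and 21.2 CPM in siMFN1+2 cells and 289, 195 and 271 CPM in proliferating cells (log2 fold change -4.03, 95% interval -4.82 to -3.24, adjusted p = 1.1e-06). LBR, the lamin B receptor, fell less with siMFN1+2. It had 31.3, 25.5 and 23.7 CPM there, 14.6, 17.3 and 13.4 CPM with the control siRNA and doxorubicin and 165, 116 and 127 CPM in proliferating cells, and the direct test was past the threshold (log2 fold change 0.83, 95% interval 0.48 to 1.19, adjusted p = 0.023).

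Targets of p53 were high. Of 29 p53 targets 23 rose and none fell, with a median log2 fold change of 1.34, and with the control siRNA the count was also 23, with a median of 1.33. Of all genes 21.1% rose with siMFN1+2 and 27.4% with the control siRNA. GDF15, a secreted stress cytokine, had 225, 269 and 140.4 CPM in siMFN1+2 cells, 302, 294 and 419 CPM in control siRNA doxorubicin cells and 20.8, 19.4 and 26.1 CPM in proliferating cells (log2 fold change 3.26, 95% interval 2.41 to 4.11, adjusted p = 1.7e-05). CYFIP2, a p53-induced regulator of actin, had 53.6, 86 and 20.5 CPM in siMFN1+2 cells and 4.75, 3.07 and 4.83 CPM in proliferating cells (log2 fold change 3.67, 95% interval 2.27 to 5.07, adjusted p = 0.00048). ALOX5, a lipoxygenase gene, was also called but rested on 38 counts over the silenced libraries and 0 over the proliferating ones. ZMAT3, an RNA-binding p53 target, was higher with siMFN1+2 than with the control siRNA, with 308, 319 and 353 CPM in siMFN1+2 cells, 199, 252 and 172 CPM in control siRNA doxorubicin cells and 79.3, 79.8 and 89.7 CPM in proliferating cells. It was the one p53 target called in the direct test (log2 fold change 0.65, 95% interval 0.33 to 0.97, adjusted p = 0.043).

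Lysosomal genes rose, 25 of 34 with siMFN1+2 (median 0.66) and 26 of 34 with the control siRNA (median 0.82), and 1 fell in each. The shares of all genes that rose were 21.1% and 27.4%. FUCA1, the lysosomal fucosidase, had 80.8, 70.8 and 42.1 CPM in siMFN1+2 cells, 54.4, 55 and 37.4 CPM in control siRNA doxorubicin cells and 4.18, 1.32 and 3.02 CPM in proliferating cells (log2 fold change 4.47, 95% interval 3.56 to 5.38, adjusted p = 1.6e-06). ATP6V0A1, a proton pump subunit, had 45.9, 40.3 and 55.1 CPM in siMFN1+2 cells and 11.9, 19.4 and 10.1 CPM in proliferating cells (log2 fold change 1.76, 95% interval 1.14 to 2.39, adjusted p = 0.00026). GUSB, beta-glucuronidase, was the one that fell, with 18.3, 10.2 and 18.1 CPM in siMFN1+2 cells and 41.5, 56.7 and 37.7 CPM in proliferating cells (log2 fold change -1.55, 95% interval -2.29 to -0.81, adjusted p = 0.0024). GLB1, whose product is the enzyme behind senescence-associated beta-galactosidase staining, rose by a log2 value of 0.52. NEU1, a sialidase, rose less than with the control siRNA, with a direct log2 difference of -0.70, 95% interval -1.00 to -0.41, adjusted p = 0.023.

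Fibroblast matrix and contractile genes rose in 17 of 36 cases with siMFN1+2 (median 0.90) and in 16 of 36 with the control siRNA (median 1.10). The shares of all genes that rose were 21.1% and 27.4%. SPARC, a matricellular protein, had 6416, 5036 and 7405 CPM in siMFN1+2 cells and 1027, 2251 and 952 CPM in proliferating cells (log2 fold change 2.16, 95% interval 1.24 to 3.08, adjusted p = 0.0011). LUM, the collagen-binding proteoglycan lumican, had 118, 143 and 68.2 CPM in siMFN1+2 cells and 11.4, 33.7 and 12.9 CPM in proliferating cells (log2 fold change 2.51, 95% interval 1.46 to 3.56, adjusted p = 0.00094). VIM, the intermediate filament vimentin, fell, with 4427, 3588 and 5365 CPM in siMFN1+2 cells and 6969, 9285 and 6669 CPM in proliferating cells (log2 fold change -0.78, 95% interval -1.26 to -0.29, adjusted p = 0.013). Proliferating library 2 was the nearest to the silenced libraries for SPARC and LUM, and also for the collagen gene COL1A1, with 19900.0, 15080.0 and 29490.0 CPM in siMFN1+2 cells and 3747, 11050.0 and 3586 CPM in proliferating cells (log2 fold change 1.81, 95% interval 0.47 to 3.15, adjusted p = 0.031). The COL1A1 call was lost without siMFN1+2 library 1 or 3 or proliferating library 1 or 3, and that of VIM without siMFN1+2 library 2 (adjusted p = 0.061). The count of 17 was 22 without proliferating library 2, 10 without proliferating library 1, 8 without proliferating library 3 and 11 without siMFN1+2 library 3. It was 6 without the libraries of the higher number range, 0089 to 0093, which hold library 3 of each group compared. In the fits with 6 and 8 the share was near that of all genes.

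Most cytokines and chemokines of the SASP were not called against proliferating cells. Of 28 tested members 6 rose and 2 fell with siMFN1+2, with a median log2 fold change of 1.08, where 21.1% of all genes rose and 20.2% fell. With the control siRNA 21 rose and 1 fell, with a median of 3.80, where 27.4% of all genes rose. The summed level of the list was 231, 261 and 198 CPM in siMFN1+2 cells, 922, 603 and 1160 CPM in control siRNA doxorubicin cells and 276, 309 and 230 CPM in proliferating cells. The silenced and proliferating sums overlap. In the direct test 6 members were lower with siMFN1+2 (CXCL1, CXCL8, CXCL6, IL6, CCL2 and LIF) and none higher. That count was 14 with the replicate block over the 18 libraries, 20 with the block on the 6 libraries alone and 0 on those 6 with no block. It was 1 without control siRNA doxorubicin library 1, 10 without library 2, 2 without library 3, and 0, 2 and 0 without siMFN1+2 libraries 1, 2 and 3.

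IL6, the archetypal SASP cytokine, had 16.1, 13.7 and 6.02 CPM in siMFN1+2 cells, 93.3, 57.6 and 140.4 CPM in control siRNA doxorubicin cells and 3.76, 10.4 and 2.58 CPM in proliferating cells. Silenced and proliferating libraries overlapped, and every control siRNA doxorubicin library was above both. The log2 fold change against proliferating cells was 1.13, 95% interval -0.32 to 2.59, adjusted p = 0.2, and against control siRNA with doxorubicin -2.98, 95% interval -4.46 to -1.51, adjusted p = 0.045. CXCL8 (interleukin 8), a neutrophil chemokine, had 7.22, 15 and 2.42 CPM in siMFN1+2 cells, 221, 104 and 320.4 CPM in control siRNA doxorubicin cells and 8.27, 7.6 and 2.94 CPM in proliferating cells. Against proliferating cells it gave 0.42, 95% interval -1.58 to 2.42, adjusted p = 0.75, and against control siRNA -4.64, 95% interval -6.85 to -2.44, adjusted p = 0.04. The intervals of the comparison with proliferating cells are wide for both genes, so they hold a several-fold rise as well as none. Both direct calls were lost without control siRNA doxorubicin library 1 or 3 or any 1 siMFN1+2 library, with adjusted p-values up to 0.18. CXCL1, a related chemokine, had 1.36, 2.29 and 0.692 CPM in siMFN1+2 cells, 58.7, 24 and 67.1 CPM in control siRNA doxorubicin cells and 1.44, 0.976 and 0.523 CPM in proliferating cells. It was lower than with control siRNA (log2 fold change -4.98, 95% interval -6.85 to -3.10, adjusted p = 0.013) and gave 0.57, 95% interval -1.43 to 2.58, adjusted p = 0.65 against proliferating cells.

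CCL2, a monocyte chemokine, had 6.79, 9.76 and 7.4 CPM in siMFN1+2 cells, 30.9, 31.1 and 68.9 CPM in control siRNA doxorubicin cells and 6.95, 25.1 and 9.86 CPM in proliferating cells. Proliferating library 2 held the high value of its group, and silenced and proliferating libraries overlapped (log2 fold change -0.79, 95% interval -1.75 to 0.16, adjusted p = 0.17). The direct test gave -2.44, 95% interval -3.42 to -1.46, adjusted p = 0.018. IL1B, an upstream SASP cytokine, varied widely in the silenced cells, with 8.2, 20.8 and 0.899 CPM there, 91.5, 68 and 49.7 CPM in control siRNA doxorubicin cells and 5.58, 2.12 and 7.72 CPM in proliferating cells. It passed neither test (log2 fold change 1.04, 95% interval -1.72 to 3.79, adjusted p = 0.55 against proliferating cells, -2.74, 95% interval -5.50 to 0.02, adjusted p = 0.31 against control siRNA), and the direct call appeared with the replicate block on those 6 libraries alone (adjusted p = 0.0023). CXCL10, an interferon-induced chemokine, had 1.51, 1.23 and 0.0692 CPM in siMFN1+2 cells, 14.6, 8.85 and 17.9 CPM in control siRNA doxorubicin cells and 0.203, 0.746 and 0.402 CPM in proliferating cells (log2 fold change 1.47, 95% interval -0.93 to 3.88, adjusted p = 0.31). Its direct value was -3.60, 95% interval -5.43 to -1.76, adjusted p = 0.051, and 0.025 with the replicate block over the 18 libraries.

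The 6 of 28 members that rose with siMFN1+2 were a share near the 21.1% of all genes that rose. LIF, an IL6-family cytokine, averaged 47.4 ± 8.42 CPM in siMFN1+2 cells, 140.4 ± 70.8 CPM in control siRNA doxorubicin cells and 18.8 ± 8.84 CPM in proliferating cells (SD, n = 3 each), a log2 fold change of 1.33 against proliferating cells (edgeR, adjusted p = 0.0073). IL1A, the alarmin that starts the SASP, averaged 4.86 ± 3.73 CPM in siMFN1+2 cells, 23.9 ± 9.62 CPM in control siRNA doxorubicin cells and 0.677 ± 0.329 CPM in proliferating cells (SD, n = 3 each), a log2 fold change of 2.85 (edgeR, adjusted p = 0.04). CCL3, a macrophage chemokine, had 8.33, 11.9 and 0.138 CPM in siMFN1+2 cells and 3.84, 5.63 and 0.879 CPM in control siRNA doxorubicin cells, with 2 counts in all over the proliferating libraries. IL33, another alarmin, had 49 counts over the silenced and 2 over the proliferating libraries. CXCL11 and TNFSF13B were the other members that rose, both below 1 CPM on average. CSF1, the macrophage growth factor, fell, with 96, 81 and 66.2 CPM in siMFN1+2 cells and 142, 159 and 119 CPM in proliferating cells (log2 fold change -0.79, 95% interval -1.31 to -0.26, adjusted p = 0.019), a call lost without siMFN1+2 library 3 (adjusted p = 0.073), proliferating library 1 (0.051) or proliferating library 2 (0.057). IL15, a lymphocyte growth factor, had 2.47, 1.58 and 2.21 CPM in siMFN1+2 cells and 3.85, 4.36 and 3.7 CPM in proliferating cells (log2 fold change -0.93, 95% interval -1.43 to -0.44, adjusted p = 0.0053). The count of 6 that rose was 3 without proliferating library 1 or siMFN1+2 library 1, and the count of 2 that fell was 1 without proliferating library 1 and 4 without the siMAVS library.

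**Figure D3:**
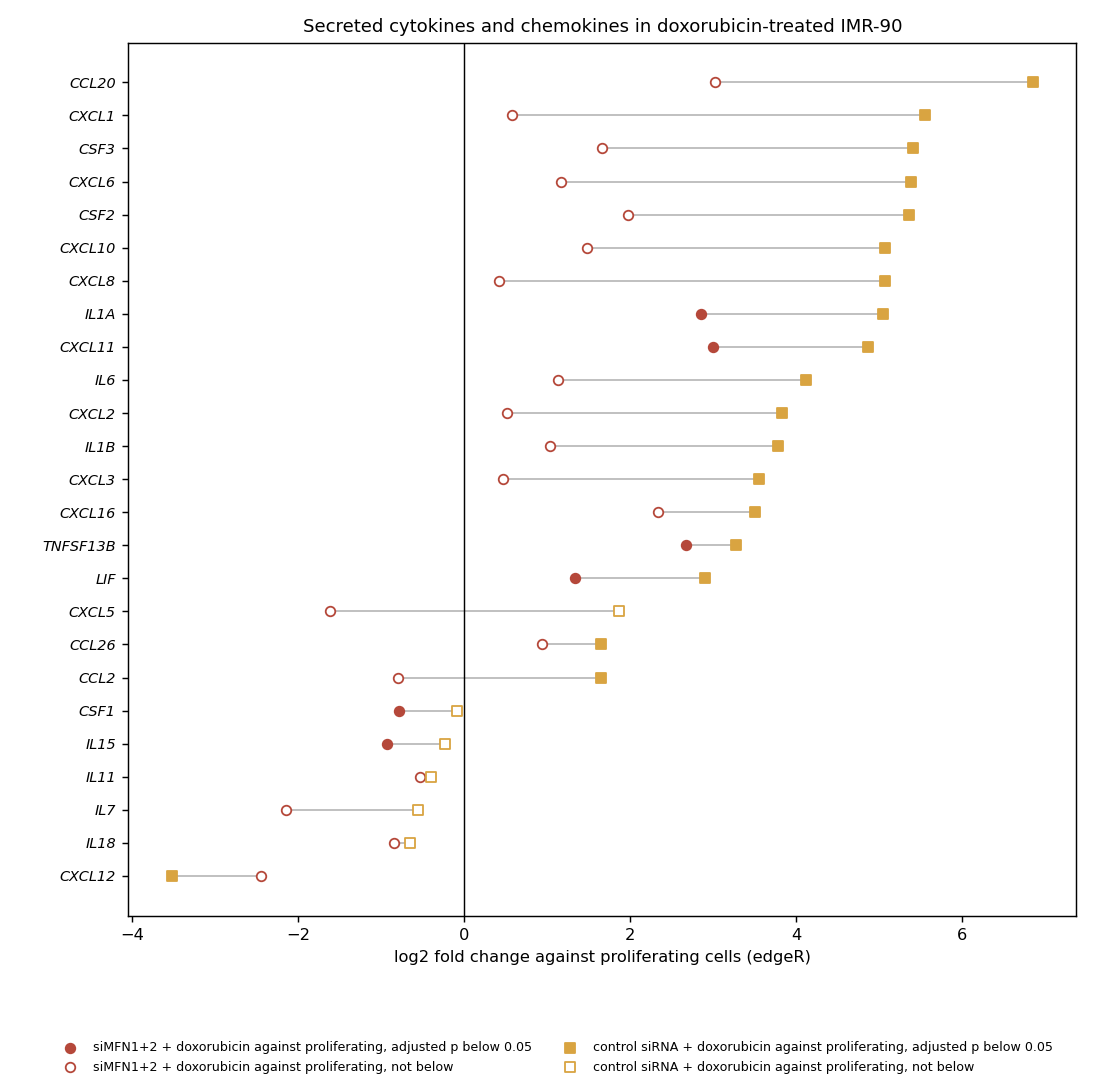
Log2 fold changes against proliferating cells of the secreted cytokines and chemokines, in siMFN1+2 cells with doxorubicin (circles) and control siRNA cells with doxorubicin (squares), filled where the adjusted p was below 0.05. TNF, IL33 and CCL3, with 3 counts or fewer over the proliferating libraries, are left out. For CXCL8 the circle lies at 0.42 and the square at 5.07.

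Many of these chemokines are classical NF-kB targets, so the windows of members that separate the doxorubicin groups are shown. Of the 20 named SASP and NF-kB members, 15 had a RefSeq window. Capitals mark GGNNNTTCC (NF-kB-like, N being any base) on either strand. IL6 lies at chr7:22726950-22727249, CXCL8 at chr4:73740319-73740618, CXCL1 at chr4:73869143-73869442 and PTX3 at chr3:157436600-157436899, all on the plus strand.
IL6: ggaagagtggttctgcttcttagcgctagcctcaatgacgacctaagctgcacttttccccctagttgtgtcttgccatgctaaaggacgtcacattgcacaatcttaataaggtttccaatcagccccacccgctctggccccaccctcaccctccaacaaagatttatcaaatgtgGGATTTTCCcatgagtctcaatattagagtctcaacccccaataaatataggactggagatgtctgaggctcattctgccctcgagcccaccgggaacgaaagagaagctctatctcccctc
CXCL8: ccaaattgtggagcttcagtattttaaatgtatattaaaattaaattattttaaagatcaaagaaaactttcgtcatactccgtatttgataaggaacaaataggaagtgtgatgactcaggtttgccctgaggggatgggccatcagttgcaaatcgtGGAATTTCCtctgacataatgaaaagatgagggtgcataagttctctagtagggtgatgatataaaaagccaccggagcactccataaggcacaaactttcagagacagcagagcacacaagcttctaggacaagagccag
CXCL1: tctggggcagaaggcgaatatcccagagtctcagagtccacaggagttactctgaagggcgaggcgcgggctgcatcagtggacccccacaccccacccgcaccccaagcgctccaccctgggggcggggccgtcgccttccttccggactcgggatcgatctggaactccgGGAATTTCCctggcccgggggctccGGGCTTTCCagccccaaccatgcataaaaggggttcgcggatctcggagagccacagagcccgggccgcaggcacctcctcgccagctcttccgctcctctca
PTX3: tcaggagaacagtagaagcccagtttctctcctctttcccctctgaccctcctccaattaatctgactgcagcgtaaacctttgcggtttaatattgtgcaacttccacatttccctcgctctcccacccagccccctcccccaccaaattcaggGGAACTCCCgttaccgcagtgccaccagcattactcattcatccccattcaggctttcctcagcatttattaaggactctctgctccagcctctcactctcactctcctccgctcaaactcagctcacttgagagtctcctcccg
The match began 72 bases before the start in IL6, 91 in CXCL8, 78 and 53 in CXCL1, and 95 in PTX3. CXCL10 had matches at 176, 122 and 110 bases and ICAM1 at 186. The motif was in none of the ANGPTL4, CCL3, IL1B, IL33, PTGS2 and VEGFC windows. In the cytokine list 11 of 22 windows (50.0%) held it, and in the NF-kB list 12 of 21 (57.1%), against 20.1% of all 35116 windows. Among other lists the share was 41.2% for immune recognition and 38.9% for cholesterol synthesis, but 16.7% for the SASP proteases, inhibitors and growth factors.

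Of 34 tested proteases, inhibitors and growth factors of the SASP 10 rose and 2 fell with siMFN1+2 (median 0.69), where 21.1% of all genes rose and 20.2% fell, and 18 rose and 1 fell with the control siRNA (median 1.22). ANGPTL4, an inhibitor of lipoprotein lipase, had 53.7, 51.5 and 26.8 CPM in siMFN1+2 cells, 158, 109 and 102 CPM in control siRNA doxorubicin cells and 1.08, 1.92 and 0.443 CPM in proliferating cells (log2 fold change 5.23, 95% interval 4.08 to 6.37, adjusted p = 3.2e-06). MMP12, the macrophage elastase, had 1.73, 2.83 and 1.38 CPM in siMFN1+2 cells and 8 counts over the proliferating libraries (log2 fold change 5.01, 95% interval 2.36 to 7.66, adjusted p = 0.0045, which was 0.050 without proliferating library 1). The activin subunit INHBA and the IGF-binding IGFBP4 and IGFBP7 rose by log2 values of 1.47, 1.74 and 1.90. PTX3, a soluble pattern recognition pentraxin, lay below proliferating cells, with 56.9, 39.8 and 43.7 CPM in siMFN1+2 cells, 202, 100.4 and 489.9 CPM in control siRNA doxorubicin cells and 133, 367 and 167 CPM in proliferating cells. The log2 values of PTX3 were -2.25 against proliferating cells and -2.49 against control siRNA. Calls against both groups also chose PTX3, so no test is given. VEGFC, a lymphangiogenic factor, also fell, with 74.2, 79.2 and 114 CPM in siMFN1+2 cells and 211, 164 and 167 CPM in proliferating cells (log2 fold change -1.02, 95% interval -1.45 to -0.59, adjusted p = 0.001). STC1, a glycoprotein hormone, was called only against the control siRNA, with 91.3, 89.8 and 98.8 CPM in siMFN1+2 cells, 173, 144 and 439 CPM in control siRNA doxorubicin cells and 109, 94.6 and 77.5 CPM in proliferating cells (log2 fold change -0.01, 95% interval -0.66 to 0.65, adjusted p = 0.99 against proliferating cells, -1.43, 95% interval -2.10 to -0.77, adjusted p = 0.037 against control siRNA). The count of 10 that rose was 5 without proliferating library 1 and 3 without the libraries of the higher number range. The 4 members lower in the direct test (PTX3, STC1, PLAT and PLAU) were called in none of the fits without control siRNA doxorubicin library 1 or 3 or any 1 siMFN1+2 library. With the replicate block on the 6 libraries alone 17 were lower and 1 higher, and on those 6 with no block 0 were called.

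**Figure D4:**
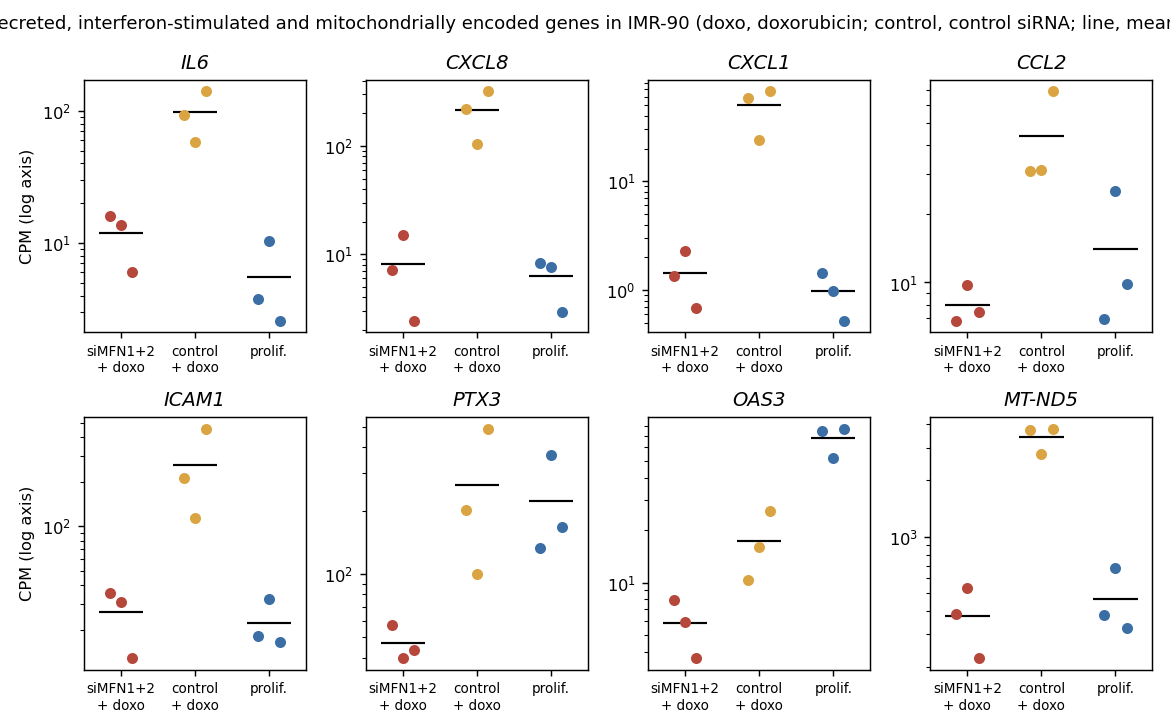
CPM on log axes in each library (points) of siMFN1+2 cells with doxorubicin, control siRNA cells with doxorubicin and proliferating cells, with group means as lines. For IL6, CXCL8, CXCL1, CCL2, ICAM1 and MT-ND5 the siMFN1+2 and proliferating points overlap, and for PTX3 and OAS3 the siMFN1+2 points lie lowest, at 39.8 to 56.9 and 3.67 to 7.96 CPM.

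Of 23 NF-kB subunits and feedback targets 3 rose and 6 fell with siMFN1+2 (median -0.52), where 21.1% of all genes rose and 20.2% fell, and 8 rose and 2 fell with the control siRNA (median 0.44). NFKBIZ, a nuclear inhibitor-like coactivator, was between the other groups, with 36.6, 35.7 and 60.4 CPM in siMFN1+2 cells, 91.5, 83.8 and 173 CPM in control siRNA doxorubicin cells and 16.1, 16.8 and 8.17 CPM in proliferating cells (log2 fold change 1.67, 95% interval 0.94 to 2.4, adjusted p = 0.0013 against proliferating cells, -1.40, 95% interval -2.11 to -0.69, adjusted p = 0.049 against control siRNA). PTGS2, the inducible cyclooxygenase, had 8.48, 14.2 and 21 CPM in siMFN1+2 cells and 4.1, 4.62 and 3.26 CPM in proliferating cells (log2 fold change 1.83, 95% interval 0.73 to 2.93, adjusted p = 0.011), a call lost without the libraries of the higher number range (adjusted p = 0.09). The ligand gene ICAM1, an adhesion molecule for leukocytes, had 35.1, 30.8 and 12.8 CPM in siMFN1+2 cells, 212, 114 and 458 CPM in control siRNA doxorubicin cells and 18.2, 32.1 and 16.5 CPM in proliferating cells. Its silenced and proliferating libraries overlapped (log2 fold change 0.26, 95% interval -0.80 to 1.31, adjusted p = 0.71), and it was lower than with control siRNA (log2 fold change -3.30, 95% interval -4.43 to -2.17, adjusted p = 0.0077). BIRC3, a ubiquitin ligase of the NF-kB pathway, had 7.22, 9.2 and 2.49 CPM in siMFN1+2 cells and 32, 19.7 and 15.1 CPM in proliferating cells (log2 fold change -1.76, 95% interval -2.94 to -0.58, adjusted p = 0.02, lost without siMFN1+2 library 1 or 3 or proliferating library 1). The subunit gene NFKB1 had 38.2, 36.9 and 29.1 CPM in siMFN1+2 cells and 88.7, 71.6 and 79.7 CPM in proliferating cells (log2 fold change -1.20, 95% interval -1.52 to -0.87, adjusted p = 2.4e-05). The 6 that fell were 3 without proliferating library 1, 2 without siMFN1+2 library 1 and 3 without siMFN1+2 library 3, and 2 rose in each. In the direct test 5 members were lower, and 9 with the replicate block over the 18 libraries. That count was 15 with the block on the 6 libraries alone and 0 on those 6 with no block. It was 1 or 2 without control siRNA doxorubicin library 1 or 3 or any 1 siMFN1+2 library.

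More interferon-stimulated genes were called below the proliferating level than above it. With siMFN1+2 5 of 47 rose and 13 fell (median -0.68), where 21.1% of all genes rose and 20.2% fell. The 13 that fell were 15 with the replicate block over the 18 libraries. They were 9 to 11 when any 1 of the compared libraries was left out, a share near that of all genes. With the control siRNA 14 rose and 3 fell (median 0.40), where 27.4% of all genes rose and 24.4% fell. OAS3, a sensor of double-stranded RNA, had 7.96, 5.95 and 3.67 CPM in siMFN1+2 cells, 10.4, 16.1 and 25.8 CPM in control siRNA doxorubicin cells and 74.6, 52.1 and 76.9 CPM in proliferating cells (log2 fold change -3.48, 95% interval -4.37 to -2.59, adjusted p = 1.4e-05). It also fell with the control siRNA, by a log2 value of 1.98. IFI44, an interferon-induced GTP-binding protein, had 1.15, 1.73 and 1.04 CPM in siMFN1+2 cells, 4.86, 5.19 and 6.96 CPM in control siRNA doxorubicin cells and 6.85, 4.5 and 8.05 CPM in proliferating cells. It was below both, with -2.25, 95% interval -3.14 to -1.37, adjusted p = 0.0006 against proliferating cells and -2.05, 95% interval -2.94 to -1.17, adjusted p = 0.025 against control siRNA. DDX60, a helicase of the antiviral response, was named because it was called below both other groups, so it is described with no test. It had 5.57, 3.66 and 3.25 CPM in siMFN1+2 cells, 9.94, 9.03 and 16.1 CPM in control siRNA doxorubicin cells and 13.6, 19.4 and 13.3 CPM in proliferating cells. Its log2 values were -1.85 against proliferating cells and -1.44 against control siRNA.

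TRIM22, an interferon- and p53-inducible antiviral factor, rose, with 129.8, 125 and 109 CPM in siMFN1+2 cells, 142, 129 and 101 CPM in control siRNA doxorubicin cells and 18.1, 31.5 and 24.6 CPM in proliferating cells (log2 fold change 2.30, 95% interval 1.89 to 2.71, adjusted p = 4.7e-07). ISG15, a ubiquitin-like modifier, had 17.6, 15.5 and 16.1 CPM in siMFN1+2 cells, 22.4, 20.8 and 47.7 CPM in control siRNA doxorubicin cells and 7.83, 8.44 and 10.4 CPM in proliferating cells (log2 fold change 0.90, 95% interval 0.25 to 1.55, adjusted p = 0.028). That call was lost without siMFN1+2 library 1 or 3 or proliferating library 1 or 2. IFIT2, an RNA-binding effector, had 9.48, 14.1 and 4.64 CPM in siMFN1+2 cells and 3.48, 4.39 and 2.74 CPM in proliferating cells (log2 fold change 1.44, 95% interval 0.52 to 2.37, adjusted p = 0.015), a call lost without siMFN1+2 library 2 or proliferating library 1 or 3. OAS1 and BST2 were lower than with control siRNA and averaged below 1 CPM in silenced and proliferating cells. The 5 that rose were 2 without proliferating library 1 and 3 without proliferating library 3 or siMFN1+2 library 1 or 3. In the direct test 6 members were lower and none higher, and 12 were lower with the replicate block over the 18 libraries. With the block on the 6 libraries alone 29 were lower and 1 higher, and on those 6 with no block 0 were called. The lower ones were 11 without control siRNA doxorubicin library 2 or siMAVS library 1, and 0 to 2 without any other 1 of the libraries compared. Of 21 cytosolic nucleic acid sensors and their regulators 0 rose and 7 fell with siMFN1+2, where 21.1% of all genes rose and 20.2% fell. The 7 that fell were 6 to 8 with any 1 of the compared libraries left out. CGAS, the DNA sensor, had 1.73, 1.08 and 1.38 CPM in siMFN1+2 cells and 8.73, 9.53 and 8.05 CPM in proliferating cells (log2 fold change -2.63, 95% interval -3.49 to -1.78, adjusted p = 0.00012), and with the control siRNA it fell by a log2 value of 2.37.

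The mitochondrially encoded mRNAs did not show the doxorubicin rise. With siMFN1+2 0 of 13 rose and 5 fell (median -0.68), where 21.1% of all genes rose and 20.2% fell. With the control siRNA 12 rose and none fell (median 1.85), where 27.4% of all genes rose. These mRNAs made up 0.557 ± 0.282% of counts in siMFN1+2 cells, 3.61 ± 0.424% in control siRNA doxorubicin cells and 0.914 ± 0.141% in proliferating cells (SD, n = 3 each). Silenced and proliferating cells differed by -0.357 percentage points (exact permutation test, two-sided, p = 0.2), and silenced and control siRNA doxorubicin cells by -3.06 points (p = 0.1, the smallest that 3 against 3 libraries allow in this exact test). The share is relative to all counts of a library, so it also depends on the other transcripts. A smaller share can come from fewer such transcripts per cell or from fewer cells that carry them, among other things. Bulk counts cannot tell these apart, and none was tested.

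MT-ND5, a complex I subunit, had 384, 528 and 223 CPM in siMFN1+2 cells, 3707, 2764 and 3791 CPM in control siRNA doxorubicin cells and 381, 681 and 323 CPM in proliferating cells. Silenced and proliferating libraries overlapped (log2 fold change -0.29, 95% interval -1.06 to 0.49, adjusted p = 0.55), and the direct difference was -3.18, 95% interval -4.02 to -2.33, adjusted p = 0.0018. MT-CO1, the catalytic subunit of cytochrome oxidase, had 1328, 1932 and 681 CPM in siMFN1+2 cells, 11700.0, 8911 and 9885 CPM in control siRNA doxorubicin cells and 2336, 3660.0 and 2142 CPM in proliferating cells (log2 fold change -1.05, 95% interval -1.80 to -0.29, adjusted p = 0.028 against proliferating cells, -2.95, 95% interval -3.76 to -2.15, adjusted p = 0.002 against control siRNA). MT-CO3, another oxidase subunit, was the furthest below proliferating cells, with 424, 639 and 236 CPM in siMFN1+2 cells and 1216, 1437 and 1143 CPM in proliferating cells (log2 fold change -1.54). Calls against both other groups also chose MT-CO3, so no test is given. MT-CO2 had a log2 value of -1.05, and the 7 complex I subunits lay between -0.25 and -0.68 with none called. The difference between these subunits was not tested. Library 3 was the low one of the silenced cells for MT-ND5, MT-CO1 and MT-CO3 and library 2 the high one. The 5 that fell were 2 without proliferating library 1, 2 without proliferating library 2, 1 without siMFN1+2 library 1, 8 without siMFN1+2 library 2 and 1 without siMFN1+2 library 3. The MT-CO1 call was lost without siMFN1+2 library 1 (adjusted p = 0.069), siMFN1+2 library 3 (0.097) or proliferating library 2 (0.10), and that of MT-CO2 without siMFN1+2 library 1 (0.094), siMFN1+2 library 3 (0.15), proliferating library 1 (0.06) or proliferating library 2 (0.17). The 12 lower in the direct test were 10 to 12 when any 1 of its 6 libraries was left out. On those 6 libraries alone the count was 13 with the replicate block and 0 with no block.

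**Figure D5:**
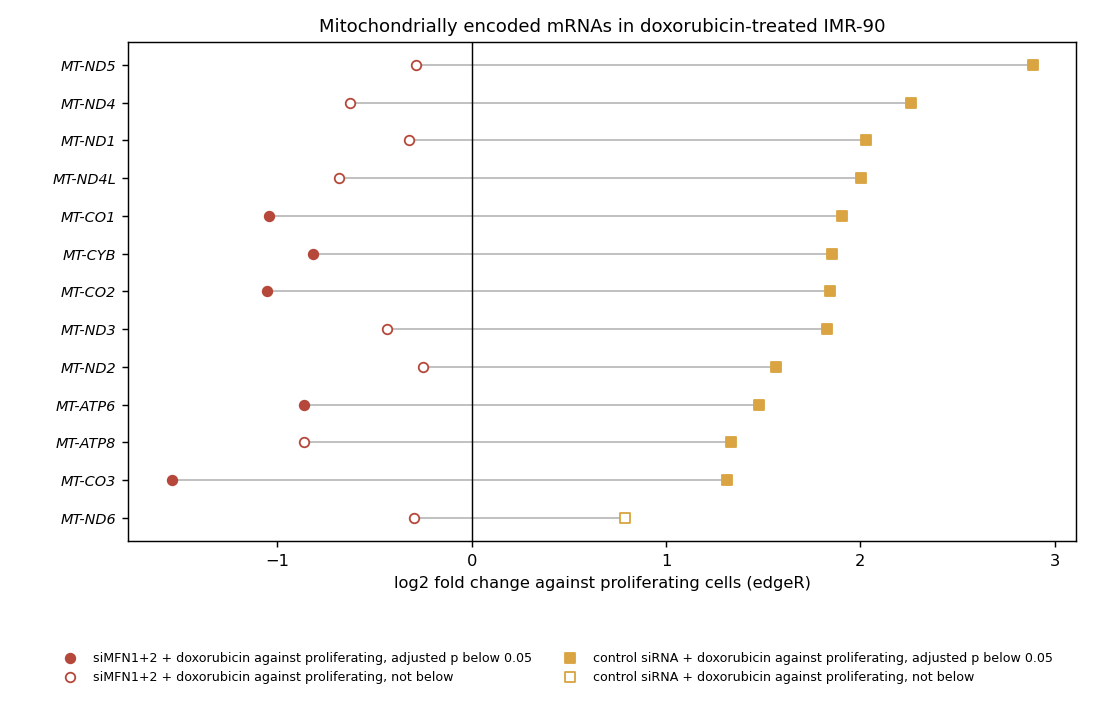
Log2 fold changes of the 13 mitochondrially encoded mRNAs against proliferating cells, in siMFN1+2 cells with doxorubicin (circles) and control siRNA cells with doxorubicin (squares), filled where the adjusted p was below 0.05. All 13 circles lie below 0, between -0.25 and -1.54, and all 13 squares above it.

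Nuclear genes that serve mitochondria are read against the 21.1% of all genes that rose and the 20.2% that fell with siMFN1+2. Of 22 genes for mitochondrial genome transcription and maintenance 2 rose and 7 fell in each comparison (medians -0.40 with siMFN1+2 and -0.48 with the control siRNA). TFAM, which packages and transcribes the mitochondrial genome, had 29.6, 39.8 and 19.1 CPM in siMFN1+2 cells, 23.6, 35.4 and 16.3 CPM in control siRNA doxorubicin cells and 102, 48.6 and 91.1 CPM in proliferating cells (log2 fold change -1.44, 95% interval -2.32 to -0.56, adjusted p = 0.012), a call lost without proliferating library 1 (adjusted p = 0.055). RRM2B, a p53-induced ribonucleotide reductase subunit, had 186, 191 and 142 CPM in siMFN1+2 cells and 62.8, 42.2 and 64.2 CPM in proliferating cells (log2 fold change 1.62, 95% interval 1.18 to 2.06, adjusted p = 2.4e-05). Of 53 nuclear-encoded respiratory chain subunits 0 rose and 10 fell with siMFN1+2 (median -0.07), a share near that of all genes. With the control siRNA 1 rose and 16 fell (median -0.18). On the 6 libraries with the replicate block none of the 53 was called. In the list of mitochondrial dynamics and mitophagy 6 of 32 rose and 10 fell, MFN1 and MFN2 among them, against 8 and 9 with the control siRNA. MIEF2, a receptor for the fission GTPase, had 31.2, 28.9 and 33.6 CPM in siMFN1+2 cells and 10.2, 15 and 9.01 CPM in proliferating cells (log2 fold change 1.45, 95% interval 0.93 to 1.97, adjusted p = 0.00027). MTFR2, a fission factor linked to proliferation, had 1.56, 1.69 and 1.52 CPM in siMFN1+2 cells and 12, 10.2 and 13.3 CPM in proliferating cells (log2 fold change -2.88, 95% interval -3.54 to -2.23, adjusted p = 4.4e-06). Apart from the mitofusins, the direct test called none of these 3 lists. Without proliferating library 1 the counts that fell were 3, 5 and 6 of the 22, 53 and 32, and without siMFN1+2 library 3 the first was 4. The 2 of 22 that rose were 1 without siMFN1+2 library 3 or proliferating library 1 or 3.

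Stress and metabolic genes were called lower more often than higher. With siMFN1+2 21.1% of all genes rose and 20.2% fell, and with the control siRNA 27.4% and 24.4%. Of 33 ATF4 and mitochondrial stress genes 2 rose and 14 fell, against 4 and 13 with the control siRNA. PHGDH, the first enzyme of serine synthesis, had 31.6, 15.8 and 37.6 CPM in siMFN1+2 cells and 147, 161 and 119.5 CPM in proliferating cells (log2 fold change -2.34, 95% interval -3.04 to -1.64, adjusted p = 5.8e-05). ATF3, a stress-induced factor, had 9.62, 18.7 and 8.1 CPM in siMFN1+2 cells and 3.18, 4.48 and 2.62 CPM in proliferating cells (log2 fold change 1.84, 95% interval 0.83 to 2.85, adjusted p = 0.0061). Of 25 cholesterol synthesis genes 1 rose and 14 fell, against 1 and 11 with the control siRNA. INSIG1, a sterol-regulated brake on the pathway, had 20.7, 27.4 and 21.6 CPM in siMFN1+2 cells and 76.5, 92.9 and 99.2 CPM in proliferating cells (log2 fold change -1.94, 95% interval -2.4 to -1.49, adjusted p = 6.4e-06). Of 25 NRF2 and oxidative stress genes 2 rose and 12 fell, against 1 and 14. NQO1, a quinone reductase, had 62.2, 75.1 and 167 CPM in siMFN1+2 cells and 773, 355 and 433 CPM in proliferating cells (log2 fold change -2.37, 95% interval -3.68 to -1.05, adjusted p = 0.0068). HMOX1, heme oxygenase, rose with siMFN1+2, with 16.8, 21.6 and 50.0 CPM in siMFN1+2 cells, 10.3, 10.5 and 19.1 CPM in control siRNA doxorubicin cells and 10.3, 8.41 and 11.2 CPM in proliferating cells (log2 fold change 1.54, 95% interval 0.58 to 2.5, adjusted p = 0.013), and silenced library 3 decided that call (adjusted p = 0.087 without it). Of 22 glycolysis genes 0 rose and 8 fell, against 2 and 6. ENO1, enolase, had 1348, 1184 and 1495 CPM in siMFN1+2 cells and 3411, 2842 and 3027 CPM in proliferating cells (log2 fold change -1.21, 95% interval -1.55 to -0.86, adjusted p = 3.5e-05). The 1 cholesterol gene that rose, SC5D, was not called without siMFN1+2 library 1 or 2 or any 1 proliferating library, and the 2 NRF2 genes that rose were 1 without any siMFN1+2 library or proliferating library 2 or 3. The counts that fell were 7 of 25 for NRF2 without proliferating library 1 or siMFN1+2 library 1, and for glycolysis 2 without proliferating library 1, 4 without siMFN1+2 library 2 and 5 without siMFN1+2 library 1 or 3. With any 1 compared library left out 10 to 14 of the ATF4 list and 12 to 14 of the cholesterol list fell. With the replicate block on the 6 libraries alone 7 ATF4, 4 cholesterol, 5 NRF2 and 1 glycolysis genes fell.

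Immune recognition genes rose in 4 of 21 cases and fell in 3 with siMFN1+2, against 10 and 2 with the control siRNA. With siMFN1+2 neither share exceeds that of all genes, 21.1% and 20.2%. The NKG2D ligand genes ULBP1 and ULBP2, which flag stressed cells to natural killer cells, rose in both. ULBP2 averaged 32 ± 4.44 CPM in siMFN1+2 cells, 33.1 ± 8.35 CPM in control siRNA doxorubicin cells and 12.3 ± 2.85 CPM in proliferating cells (SD, n = 3 each), with a log2 fold change of 1.36, 95% interval 0.92 to 1.80, adjusted p = 0.00012 against proliferating cells. The class I genes HLA-B, HLA-C and HLA-E rose with the control siRNA by log2 values of 1.70, 1.4 and 1.5, and gave 0.70, 0.70 and 0.74 with siMFN1+2, none of the last past the threshold. These paralogs may share reads. ERAP1, which trims peptides for class I, fell, with 44.2, 40.3 and 29.3 CPM in siMFN1+2 cells and 81.3, 107 and 73.6 CPM in proliferating cells (log2 fold change -1.19, 95% interval -1.67 to -0.72, adjusted p = 0.00065).

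Among genes averaging 2 or more in log2 CPM and with non-overlapping groups, the 5 that rose most against proliferating cells were CCND2, HEPHL1, ILDR2, ANGPTL4 and INPP5D. Groups did not overlap for 9362 of 19077 genes (49.1%). CCND2, the gene of cyclin D2, had 66.5, 21.4 and 50.6 CPM in siMFN1+2 cells and 9.48, 9.42 and 9.74 CPM in control siRNA doxorubicin cells, with 3 counts in all over the proliferating libraries, so no fold is given. ILDR2, a membrane protein of the immunoglobulin superfamily, had 27.1, 21.1 and 13.2 CPM in siMFN1+2 cells, 0.993, 3.38 and 0.513 CPM in control siRNA doxorubicin cells and 0.65, 0.115 and 0.724 CPM in proliferating cells. Its log2 values were 5.34 against proliferating cells and 3.60 against control siRNA. Calls against both groups also chose ILDR2, so it is described with no test. INPP5D, the lipid phosphatase SHIP1, had 99.3, 110.1 and 38 CPM in siMFN1+2 cells and 2.8, 0.172 and 3.86 CPM in proliferating cells (log2 fold change 5.20, 95% interval 2.97 to 7.43, adjusted p = 0.0012). The copper oxidase gene HEPHL1 had 25.4, 44.1 and 5.12 CPM in siMFN1+2 cells and 0.514, 0.201 and 0.764 CPM in proliferating cells (log2 fold change 5.72, 95% interval 2.7 to 8.74, adjusted p = 0.005). The 5 largest falls were those of SAPCD2, PKN3, CDCA7, LMNB1 and CDC20. CDCA7, a chromatin factor induced by MYC and E2F, had 1.86, 2.91 and 2.01 CPM in siMFN1+2 cells and 61.4, 38.7 and 60.0 CPM in proliferating cells (log2 fold change -4.54, 95% interval -5.44 to -3.65, adjusted p = 1.2e-06). SAPCD2, a regulator of spindle orientation, had 1.12, 1.96 and 1.31 CPM in siMFN1+2 cells and 48, 42.8 and 50.9 CPM in proliferating cells (log2 fold change -5.00, 95% interval -6.07 to -3.92, adjusted p = 2.8e-06). The kinase gene PKN3 had 0.855, 1.21 and 1.38 CPM in siMFN1+2 cells and 28.1, 24.5 and 29.2 CPM in proliferating cells (log2 fold change -4.64, 95% interval -5.24 to -4.04, adjusted p = 5.1e-08).

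Some genes were called in the same direction against both other groups, and since those calls chose them, they are described with no test. CRABP2, a carrier of retinoic acid, had 46.4, 28.4 and 60.8 CPM in siMFN1+2 cells, 14.8, 20.8 and 17.6 CPM in control siRNA doxorubicin cells and 6.8, 8.12 and 11 CPM in proliferating cells, with log2 values of 2.39 against proliferating cells and 1.34 against control siRNA. SYNPO2L, an actin-associated protein of muscle, had 11.3, 12.9 and 14.5 CPM in siMFN1+2 cells, 1.94, 3.37 and 5.2 CPM in control siRNA doxorubicin cells and 1.56, 2.55 and 1.77 CPM in proliferating cells, with log2 values of 2.72 and 1.92 in those comparisons. For LCTL, a lactase-like protein, the control siRNA doxorubicin cells were the lowest group, with 7.17, 4.18 and 8.65 CPM in siMFN1+2 cells, 0.935, 1.64 and 0.769 CPM in control siRNA doxorubicin cells and 1.88, 3.01 and 3.22 CPM in proliferating cells. TMEM130 had 48.4, 27.2 and 80.9 CPM in siMFN1+2 cells, 8.88, 7.47 and 13.8 CPM in control siRNA doxorubicin cells and 14.4, 29.4 and 16.8 CPM in proliferating cells, and its silenced and proliferating groups overlapped. Its call against proliferating cells was lost with the replicate block over 18 libraries (adjusted p = 0.064) and without siMFN1+2 library 1 or 3 or proliferating library 1 or 3 (up to 0.21). The 5 genes lowest against both groups were MFN2, MFN1, MT-CO3, PTX3 and DDX60, whose values are given above. MFN1 and MFN2 were named as the targeted genes, so tests are given for them.

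The comparison was also set against the one in SK-MEL-103, which shares no library with it. The difference between the lines passed the threshold for 3979 of 20892 genes (19.0%), 1643 with the larger value in IMR-90 (7.86%) and 2336 with the larger value in SK-MEL-103 (11.2%), a split that became 2232 and 1708 with DESeq2 size factors, which moved the median difference over all genes from -0.05 to 0.09. LMNB1 fell in both lines, with log2 values of -4.45 in IMR-90 and -4.53 in SK-MEL-103 (difference 0.08, SE 0.469, adjusted p = 0.95). CDKN1A rose in both, by 2.86 and 1.95 (difference 0.91, adjusted p = 0.00016), and MKI67 fell less in IMR-90, by 3.59 against 7.51 (difference 3.92, adjusted p = 0.019). IL6 had log2 values of 1.15 in IMR-90 and 3.97 in SK-MEL-103, and the difference of -2.82 did not pass (adjusted p = 0.10). MT-CO1 had -1.04 in IMR-90 and 0.65 in SK-MEL-103 (difference -1.69, adjusted p = 0.0026). GDF15 averaged 224 ± 70.4 CPM in silenced and 23.3 ± 3.71 CPM in proliferating IMR-90, whereas both SK-MEL-103 groups were below 1 CPM, at 0.243 ± 0.109 and 0.670 ± 0.190 CPM (SD, n = 3 each).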

How the data were processed

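The deposited table held raw gene counts, per the labels, for 48898 genes (48679 with a symbol) in 48 libraries (poly(A) RNA, a kit that keeps strand, 10 PCR cycles). Per the submitters' processing notes, Trim Galore 0.6.7, STAR 2.7.10a and featureCounts were used with GRCh38, and the featureCounts version and settings are not given in the sources used here. The columns were joined to samples through the labels. All 18 IMR-90 siRNA libraries (6 groups of 3) were fitted together in edgeR 4.0.16 (filterByExpr, TMM, glmQLFit, no block), which left 19077 genes, and p-values were adjusted over all of them by Benjamini-Hochberg. The mitochondrially encoded share was compared by an exact permutation test. The fit was tested on simulated data. Replicate numbers paired the doxorubicin libraries, whose deviations from their group means correlated at 0.395, 0.679 and 0.645 between siMFN1+2 and control siRNA, which is a check from the data. Named genes were the targeted genes and senescence genes, the 5 highest and 5 lowest, the 2 most changed called members of each list in each direction, up to 2 members of each list called between the doxorubicin groups, the 5 highest and 5 lowest genes called the same way against both other groups, and a few genes (MTAP, PCNA, TOP2A, MCM, LIF, IL1A and class I genes among them) added after their values were seen. The members and lists were chosen with earlier results of these data known. Alternatives were other scalings, filters, tools, blocks and left-out libraries, and DESeq2 1.42.0. Intervals and floors cover counting error or library spread only. Promoters came from RefSeq (GRCh38.p14), matched by symbol, with edges as annotated there.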

Additional observations from a re-analysis of the deposited data

Results flagged for a closer look

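For 9 of the genes named in every comparison the siMFN1+2 response against proliferating cells differed between IMR-90 and SK-MEL-103 by a test of the difference itself (edgeR's quasi-likelihood test, Benjamini-Hochberg adjusted over 20892 genes), against 19.0% of all genes. The others, CDKN2A, LMNB1, IL6, CXCL8, IL1B, CXCL10 and ISG15, did not pass. All were picked by name, MFN1 and MFN2 as the silenced genes.
MFN2 was lowered more in IMR-90 (log2 -3.30) than in SK-MEL-103 (-2.49), a difference of -0.80 (adjusted p = 0.00065), and MFN1 likewise (-2.45 and -1.43, difference -1.02, adjusted p = 0.023).
MAVS, which was not targeted, differed by -1.1, with -0.27 in IMR-90 and 0.83 in SK-MEL-103 (adjusted p = 0.00069).
CDKN1A differed by 0.91 (2.86 and 1.95, adjusted p = 0.00016) and MKI67 by 3.92 (-3.59 and -7.51, adjusted p = 0.019).
GDF15 differed by 4.87 (3.27 in IMR-90 and -1.60 in SK-MEL-103, adjusted p = 4.2e-05), where its SK-MEL-103 level was below 1 CPM in each library.
CCL2 differed by -2.73 (-0.79 and 1.94, adjusted p = 0.0094).
The mitochondrial mRNAs MT-CO1 and MT-ND5 differed by -1.69 (-1.04 and 0.65, adjusted p = 0.0026) and -1.25 (-0.28 and 0.97, adjusted p = 0.03).
With DESeq2 size factors every difference shifted upwards by about 0.14, and none of these 9 changed direction.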

How the results depend on the processing

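The number of genes called between siMFN1+2 and proliferating cells was 7880, and 5590 to 8033 when 1 of the compared libraries was left out, 8737 without siMAVS library 1, and 3297 with the replicate block on the 6 libraries alone. The comparison of control siRNA doxorubicin with proliferating cells gave 9877, and 5255 under that last fit. The replicate numbers did not pair siMFN1+2 or control siRNA doxorubicin libraries with proliferating ones, since 1 or more correlations of their deviations were below 0.1. The direct comparison of both doxorubicin groups gave 300 calls, and 691 with the replicate block over 18 libraries, 3260 with the block and 2 without it on its 6 libraries, 147 with no filter on low counts, 867 with DESeq2, 686 with library number range in the model, 35 without the higher range, 594 without siMAVS library 1, 193 with the older edgeR form, and 44 to 538 with 1 library left out. The fits without siMAVS library 1 and with the older edgeR form were chosen after seeing the data. The share of mitochondrially encoded counts differed by -0.357 points, and by -0.501 to -0.220 with 1 library left out. The difference between lines gave 2658 to 5136 calls against 3979. No direction of a called result reversed under these alternatives. For named genes against proliferating cells, 1657 alternative values kept their side of the threshold, 130 lost it and 2 gained it. With 15540397 counts in the shallowest library, genes under about 1 CPM, such as ALOX5, IL33, CXCL10 and OAS1, rest on few counts.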
